A study of Mus musculus with 2 samples.

Results

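The Toll-like receptors are a family of membrane receptors by which innate immune cells detect microbial molecules. The genes described are Tlr1 to Tlr9 and Tlr13, found by their symbols in the deposited expression table, which gave 10 members of 34745 genes listed. Tlr4 was set against the other 9 because it was chosen on its measured difference between these same libraries, so its values are a description and support no test. Mouse bone marrow cells, taken at 6 to 8 weeks of age per the study's methods, were cultured for 7 days with GM-CSF at 50 ng/ml, a growth factor for myeloid cells. One culture condition held GM-CSF alone (CHBP- M-MDSC), and the other also held CHBP, the cyclic helix B peptide made from erythropoietin (CHBP+ M-MDSC). The labels name both as M-MDSC, monocytic myeloid-derived suppressor cells, which are immature monocytic cells that restrain T cells. The study defines them as CD11b+Ly6G-Ly6Chigh, and its methods state that induced cells were tested or sorted by flow cytometry. By their labels the CHBP- cells came from C57BL/6 mice and the CHBP+ cells from C57BL/7, and a difference in strain was not tested. As marrow donors the methods name C57BL/6 mice, and mice of that background whose myeloid cells lack Epor, the erythropoietin receptor gene. Their section on RNA sequencing states no strain and no sort. The CHBP dose is stated in different units in the methods and results of the study and is not given here.

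Each condition was sequenced as 1 library, so no difference below has a replicate check and no test was possible. The effect of CHBP cannot be told apart from anything else that set these 2 libraries apart, nor can fewer cells of a type and less RNA per cell. Reads counted on genes summed to 16484504 in CHBP- and 16280466 in CHBP+ M-MDSC, and 3 reads correspond to 0.182 and 0.184 CPM (counts scaled to the library total alone). Levels are FPKM, in which reads are divided by a gene's length in kilobases and by the library total, with exact Poisson 95% intervals. Folds are CHBP+ over CHBP- reads, each scaled to its library total, with exact Clopper-Pearson 95% intervals. All intervals cover counting error only, because each condition has 1 library. They also take reads as independent, and are too narrow where several reads come from the same molecule. Of the sorting markers, Itgam, which encodes CD11b, was listed as 2 overlapping entries with 18653 and 8703 reads in CHBP- and 27265 and 13147 reads in CHBP+ M-MDSC. Their folds were 1.48 and 1.53. Ly6c2, one of the paralogs that encode Ly6C, had 4091 reads in the CHBP- and 2411 in the CHBP+ library, 0.597-fold. Ly6c1, its close paralog, had 201 and 156 reads, uncertain where reads fit both, and Ly6g, which encodes the neutrophil marker Ly6G, had 46 and 44.

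TLR1, TLR2, TLR4, TLR5 and TLR6 act at the cell surface and bind parts of the bacterial wall or flagellum, whereas TLR3, TLR7, TLR8, TLR9 and TLR13 act in endosomes and bind nucleic acids. All but TLR3 signal through the adaptor MYD88, and TLR3 and internalised TLR4 signal through TICAM1 (TRIF). Both routes lead through kinases and ubiquitin ligases to NF-kappaB and interferon regulatory factors. Monocytes and the cells derived from them are known for TLR2 and TLR4, the receptors of bacterial lipopeptides and of lipopolysaccharide.

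Sequence decides which of these genes can be counted apart. Tlr1 and Tlr6 are neighbours on chromosome 5 with 18.5 kb and 0 listed genes between them, and their coding sequences were 73.1% identical in the GENCODE M1 transcripts. The 120-base stretches below, in the coding sequence from base 1408 to 1527 of Tlr1 and from base 1447 to 1566 of Tlr6, are shown because a read of 75 bases from within them tells the genes apart by 1 base only, which is in capitals.
Tlr1: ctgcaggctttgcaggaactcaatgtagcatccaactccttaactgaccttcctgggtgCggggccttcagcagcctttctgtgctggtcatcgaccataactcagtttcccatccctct
Tlr6: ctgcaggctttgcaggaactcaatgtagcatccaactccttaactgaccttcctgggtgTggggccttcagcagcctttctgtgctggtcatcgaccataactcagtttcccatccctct
The longest run that both coding sequences shared was 229 bases, which begins inside this stretch. Of all 75-base windows, 340 of 2578 (13.2%) in the Tlr1 transcript occurred also in Tlr6, and 340 of 2529 (13.4%) in the Tlr6 transcript occurred also in Tlr1. The transcripts of the other 8 members shared 0 windows with another gene among the 55443 coding transcripts searched. Tlr7 and Tlr8, neighbours on chromosome X with 40.6 kb between them, were 53.5% identical, and the longest run they shared was 13 bases. Tlr4 was at most 49.2% identical to another member. Tlr1 and Tlr6 are therefore given both singly, as uncertain values, and as a sum.

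Promoter windows from RefSeq were matched by symbol for 8 members, all but Tlr4 and Tlr7. The 250 bases before the RefSeq start of Tlr8 and Tlr9 are printed because these were the members with the highest folds after Tlr4. Capitals mark GAGGAA or its reverse complement TTCCTC, the core bound by PU.1, the transcription factor of the monocytic lineage, and by other ETS factors. Both are on GRCm38.p6, Tlr8 at chrX:167264330-167264579 on the minus strand and Tlr9 at chr9:106222348-106222597 on the plus strand.
Tlr8: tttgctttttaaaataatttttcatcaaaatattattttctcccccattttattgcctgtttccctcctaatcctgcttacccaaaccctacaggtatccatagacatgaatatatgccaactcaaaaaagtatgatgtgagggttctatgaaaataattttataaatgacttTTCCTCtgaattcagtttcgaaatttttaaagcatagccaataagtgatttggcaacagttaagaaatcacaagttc
Tlr9: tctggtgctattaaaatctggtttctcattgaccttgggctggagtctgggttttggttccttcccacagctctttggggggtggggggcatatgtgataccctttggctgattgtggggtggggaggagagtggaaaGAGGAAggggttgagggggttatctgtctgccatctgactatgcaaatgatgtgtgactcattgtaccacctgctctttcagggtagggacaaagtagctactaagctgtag
On either strand, GAGGAA was found in 4 of the 10 member windows, those of Tlr1, Tlr8, Tlr9 and Tlr13, and in 23.3% of all 32851 RefSeq windows of this length. GGGCGG was found in 2 of the 10 member windows and 32.7% of all, TATAAA in 2 and 12.4%, and TGANTCA in 1 and 6.75%. These matches are letters in a window and were not set against any binding data.

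Among the surface receptors, Tlr4 differed most between the libraries and Tlr2 was the most abundant. Tlr4 (ENSMUSG00000039005, chr4:66827584-66930284 in the deposited GRCm38 coordinates) encodes the lipopolysaccharide receptor. The CHBP- library held 556 reads of it and the CHBP+ library 4443. Its level was 4.99 FPKM (4.58 to 5.42) in CHBP- and 40.4 FPKM (39.2 to 41.6) in CHBP+ M-MDSC. Tlr4 was thus high in CHBP+ and low in CHBP- M-MDSC, with intervals far apart, and the fold was 8.09 (7.41 to 8.85). On the log2 scale with 1 FPKM added to each library, log2((FPKM + 1)/(FPKM + 1)), which understates the change of low genes, its log2 ratio was 2.79. That placed Tlr4 at rank 5 of the 10948 genes that reached 1 FPKM in either library, the genes kept. By level alone, Tlr4 moved from rank 6365 of all genes in CHBP- to rank 1061 in CHBP+ M-MDSC.

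Tlr2 (ENSMUSG00000027995, chr3:83836272-83841767), the lipopeptide receptor that pairs with TLR1 or TLR6, had 7675 reads in the CHBP- and 7748 in the CHBP+ library. Its levels were 154 FPKM (151 to 158) and 158 FPKM (154 to 161), which overlap, and its fold was 1.02 (0.990 to 1.06). Tlr6 (ENSMUSG00000051498, chr5:64952031-64960097), the partner of TLR2 for diacyl lipopeptides, had 663 and 667 reads. Its levels were 9.75 and 9.94 FPKM with overlapping intervals, at a fold of 1.02 (0.913 to 1.14). Tlr1 (ENSMUSG00000044827, chr5:64924679-64933563), the partner for triacyl lipopeptides, had 358 and 408 reads, or 3.53 and 4.07 FPKM, at a fold of 1.15 (0.999 to 1.33). The intervals of both folds include 1. Summed, which leaves aside which of the pair a read was given to but not reads dropped or counted for both, Tlr1 and Tlr6 had 1021 reads in the CHBP- and 1075 in the CHBP+ library, at a fold of 1.07 (0.978 to 1.16). Tlr5 (ENSMUSG00000079164, chr1:182954788-182976044), the flagellin receptor, had 44 and 62 reads and stayed under 1 FPKM in both libraries, at 0.250 and 0.357 FPKM. A difference in Tlr5 was not detectable at this depth, with a fold of 1.43 (0.954 to 2.15). Tlr4 set apart, the surface members therefore had nearly the same summed level, 168 FPKM in CHBP- and 172 FPKM in CHBP+ M-MDSC. Most of that sum was Tlr2, so it says little of the others.

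Among the endosomal receptors, Tlr13 was the most abundant and Tlr8 had the highest fold. Tlr13 (ENSMUSG00000033777, chrX:106143204-106160493), the receptor of bacterial ribosomal RNA, had 3978 reads in the CHBP- and 5181 in the CHBP+ library. Its levels were 57.7 FPKM (56.0 to 59.6) and 76.2 FPKM (74.1 to 78.3), which do not overlap, and its fold was 1.32 (1.27 to 1.37). Tlr7 (ENSMUSG00000044583, chrX:167304929-167330558), a receptor of single-stranded RNA, had 749 and 1053 reads, equal to 3.95 and 5.62 FPKM, at a fold of 1.42 (1.29 to 1.57). Both genes were higher in CHBP+ M-MDSC, with intervals above 1 and folds under 1.5. Tlr8 (ENSMUSG00000040522, chrX:167242696-167264329), a receptor of RNA that lies next to Tlr7, had 353 and 758 reads. Its levels were 2.74 FPKM (2.46 to 3.04) in CHBP- and 5.96 FPKM (5.54 to 6.40) in CHBP+ M-MDSC, at a fold of 2.17 (1.91 to 2.47) and a log2 ratio of 0.90, rank 115 of 10948. Tlr8 was thus below Tlr7 in CHBP- and level with it in CHBP+ M-MDSC, where their FPKM intervals overlap. Tlr9 (ENSMUSG00000045322, chr9:106222598-106226883), the receptor of CpG DNA, had 61 and 102 reads, or 1.06 and 1.80 FPKM, at a fold of 1.69 (1.22 to 2.36). Tlr3 (ENSMUSG00000031639, chr8:45395665-45410608), the receptor of double-stranded RNA, had 27 and 36 reads, or 0.287 and 0.387 FPKM, at a fold of 1.35 (0.797 to 2.31). Tlr3 was under 1 FPKM in both libraries and its difference was not detectable at this depth. The 2 mouse family members outside the set were near the floor, Tlr11 with 1 and 0 reads and Tlr12 with 12 and 8.

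**Figure D1:**
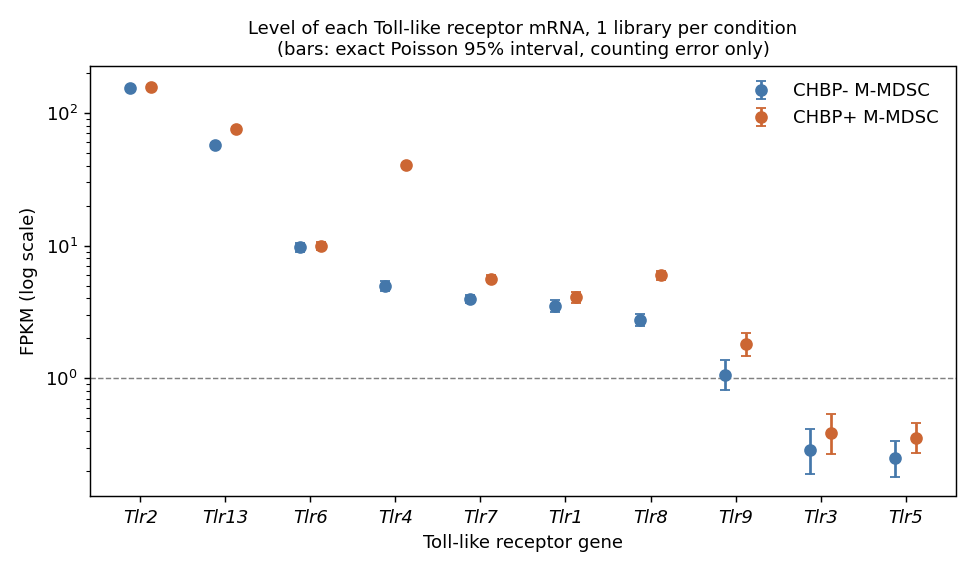
Level of each receptor mRNA in FPKM on a log axis, in CHBP- M-MDSC (blue) and CHBP+ M-MDSC (orange), with exact Poisson 95% intervals and a dashed line at 1 FPKM. Tlr4 goes from 4.99 to 40.4 FPKM, whereas Tlr2 stays near 154 and 158 FPKM and Tlr3 and Tlr5 lie below the line in both libraries.

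Read together, all 10 folds were above 1. Of the 10948 genes kept, which leave out Tlr3 and Tlr5, 46.3% were higher in CHBP+ M-MDSC. That share ran from 19.7% to 85.4% over 10 equal bins of genes by length, so nothing is read from the direction of the 10 folds. The intervals of 5 members, Tlr4, Tlr7, Tlr8, Tlr9 and Tlr13, lay above 1. The share of all genes with such an interval was not computed, so nothing is read from this count. The median fold was 1.39 over the 10 members and 1.35 over the 9 other than Tlr4, which ranged from 1.02 to 2.17. The fold of Tlr4 was 3.72 times that of Tlr8, the next highest, and 5.99 times the median of the 9 others. At a threshold of 1.5-fold on the log2 ratio scale, 2 members were higher in CHBP+ M-MDSC, Tlr4 and Tlr8, and 0 were lower. The study's methods also use 1.5-fold, but together with a P value limit and with no added FPKM stated, so these counts are not its calls. Of the 10 members, 8 reached 1 FPKM in either library and could be counted. Tlr9, whose fold of reads was 1.69, had a log2 ratio of 0.44 and did not pass. The background was 374 of 10948 genes higher (3.42%) and 316 lower (2.89%), and since Tlr4 was chosen on this comparison nothing is read from the members' count.

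**Figure D2:**
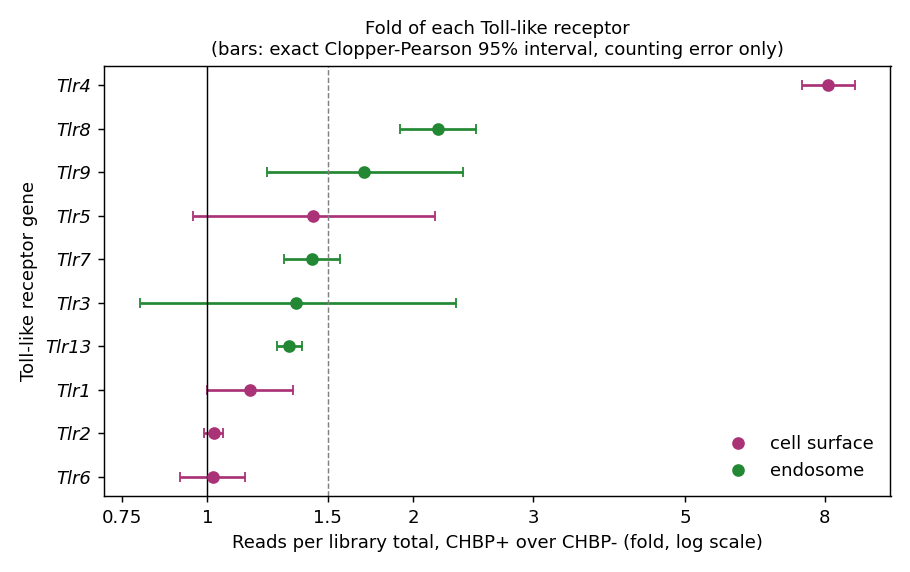
Fold of reads scaled to the library total, CHBP+ over CHBP- M-MDSC, on a log axis, for surface (purple) and endosomal (green) receptors, with exact Clopper-Pearson 95% intervals, a solid line at 1 and a dashed line at 1.5. Tlr4 at 8.09 stands clear of the 9 others, which lie between 1.02 and 2.17.

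Tlr4 and Tlr8 changed their places in the order of the members. In CHBP- M-MDSC the FPKM order was Tlr2, Tlr13, Tlr6, Tlr4, Tlr7, Tlr1, Tlr8, Tlr9, Tlr3 and Tlr5, and neighbours with overlapping intervals were Tlr7 with Tlr1 and Tlr3 with Tlr5. In CHBP+ M-MDSC it was Tlr2, Tlr13, Tlr4, Tlr6, Tlr8, Tlr7, Tlr1, Tlr9, Tlr3 and Tlr5, with overlap of Tlr8 with Tlr7 and of Tlr3 with Tlr5. Tlr4 was 3.23% of the FPKM of Tlr2 in CHBP- and 25.6% in CHBP+ M-MDSC. The summed FPKM of the 10 members went from 239 to 303, and without Tlr4 from 234 to 262. Tlr4 made up 2.09% of the sum in CHBP- and 13.3% in CHBP+ M-MDSC, and Tlr2 64.7% and 52.2%. The endosomal members together had 65.8 FPKM in CHBP- and 89.9 FPKM in CHBP+ M-MDSC, a ratio of 1.37. Most of that sum was Tlr13, at 57.7 and 76.2 FPKM.

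**Figure D3:**
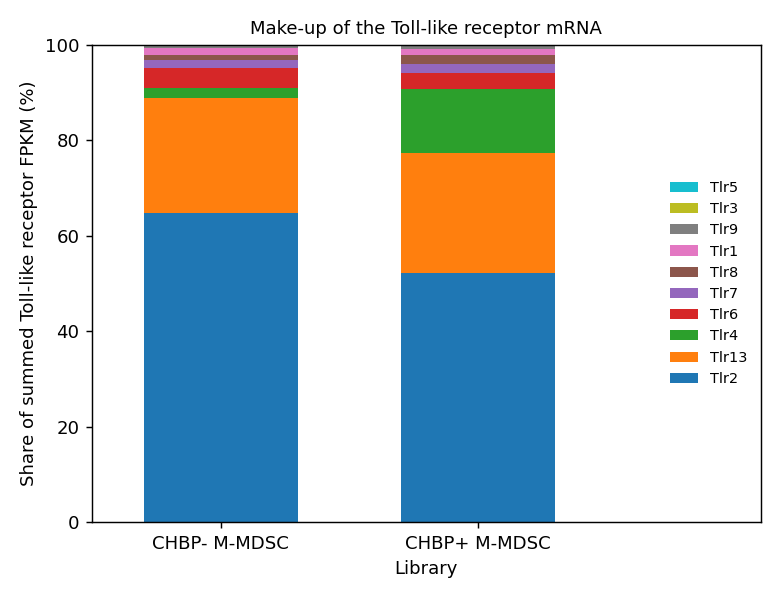
Share of each receptor in the summed FPKM of the 10 members, in percent, for the CHBP- and CHBP+ M-MDSC libraries. The share of Tlr4 (green) is 2.09% in CHBP- and 13.3% in CHBP+ M-MDSC, and that of Tlr2 (blue, bottom) is 64.7% and 52.2%.

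Levels compared between genes depend on the length used. The length that each FPKM was divided by, solved from the deposited count and FPKM, exceeded the longest GENCODE M1 transcript 2.95 times for Tlr7, 2.28 times for Tlr8, 3.34 times for Tlr5 and 2.32 times for Tlr1. For Tlr4 it was 6759 bases against 4077, or 1.66 times, and for Tlr2, Tlr9 and Tlr13 it was 1.00 to 1.03 times. Over 10508 genes kept with such a transcript the median was 1.67 times. Per base of the longest transcript, Tlr4 was at 8.27 FPKM in CHBP- M-MDSC, the fifth place, behind Tlr7 at 11.7 and with an interval that overlaps that of Tlr1 at 8.19. In CHBP+ M-MDSC it was at 66.9 FPKM on this scale and in the third place, below Tlr13 at 78.4 and above Tlr7 at 16.6. Tlr8, level with Tlr7 in the deposited FPKM of that library, was below it on this scale at 13.6 (12.6 to 14.6). The share of Tlr4 in the members' sum was then 3.11% in CHBP- and 18.5% in CHBP+ M-MDSC. The folds of reads are not affected, since both libraries were divided by the same length. The minimum of 1 FPKM and the log2 ratio, to which 1 FPKM is added, do depend on that length. Per base of the longest transcript, Tlr5 was at 0.834 FPKM in CHBP- and 1.19 FPKM in CHBP+ M-MDSC, above 1 in the latter. Members past 1.5-fold were not recounted on this scale.

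The log2 ratio followed gene length across all genes, so each member is set beside genes of its length. Spearman's rho was 0.478 over the 10948 genes with the length in the deposited FPKM, and 0.658 over 10508 genes with the longest GENCODE M1 transcript, both across genes, which are not independent replicates. The median log2 ratio went from -0.30 in the shortest of 10 equal bins of genes by deposited length to 0.23 in the longest. In the bin that holds Tlr4 it was 0.02, and 1 of its 1094 genes, Tlr4 itself, reached the log2 ratio of Tlr4. For Tlr8 the median of its bin was 0.07, and 9 of 1095 genes were at least as high. For Tlr9 it was -0.08 with 25 of 1094 genes, and for Tlr13 -0.03 with 38 of 1095. Tlr7, with the longest length among the members, had a log2 ratio of 0.42 against 0.12 in its bin, where 142 of 1095 genes were at least as high. Tlr1, Tlr2 and Tlr6 had log2 ratios of 0.16, 0.03 and 0.02, with 300 of 1094, 227 of 1095 and 455 of 1095 genes of their bins at least as high. With the trend removed by a polynomial in log length, Tlr4 was at 2.75, Tlr8 at 0.83, Tlr9 at 0.53, Tlr13 at 0.45 and Tlr7 at 0.26, and the spread of genes around the trend was 0.30 (SD). In bins by the longest transcript, the medians were 0.10 for Tlr4 and Tlr13, 0.05 for Tlr7 and Tlr9, and -0.01 for Tlr8. With that trend removed, Tlr4 was at 2.71, Tlr8 at 0.88, Tlr9 at 0.42, Tlr7 at 0.35 and Tlr13 at 0.31, and the spread was 0.26 (SD). How far the length trend bears on the smaller differences was not tested.

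**Figure D4:**
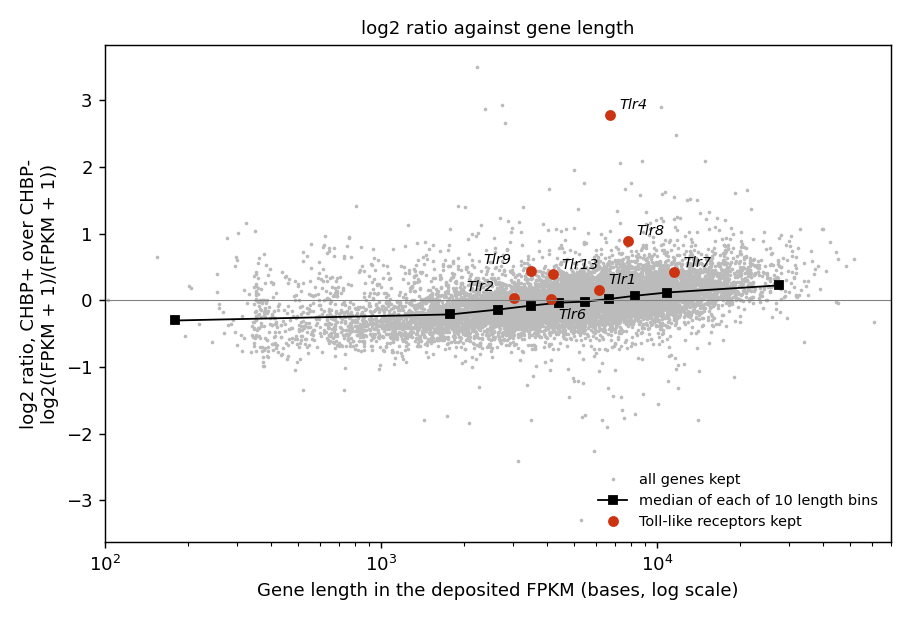
Log2 ratio of CHBP+ over CHBP- M-MDSC against the gene length in the deposited FPKM (bases, log axis) for 10948 genes (grey), with the median of each of 10 length bins (black) and the 8 receptors kept (red). Tlr4 at 2.79 lies far above the median of 0.02 for its length, and Tlr2 and Tlr6 lie near 0.

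The neighbours of Tlr4 had smaller differences. In the deposited coordinates 0 listed genes overlap any of the 10 members. The nearest genes with at least 10 reads lay 1.21 to 3.5 Mb away. Trim32, before Tlr4, had 164 and 188 reads, at a fold of 1.16 (0.936 to 1.44). Beyond it, Tnc had 8 and 19 reads, at a fold of 2.40 (1.01 to 6.35), and Tnfsf8 had 351 and 430, at a fold of 1.24 (1.07 to 1.43). After Tlr4, Cdk5rap2 had 766 and 1119 reads, at a fold of 1.48 (1.35 to 1.62), Gm11226 had 153 and 143, and Megf9 had 724 and 958, at a fold of 1.34 (1.22 to 1.48). The deposited span of Tlr4 is 102701 bases, whereas the RefSeq gene on GRCm38 spans 19031 and ends 83703 bases earlier. Since an annotated gene ends in an exon, an annotated exon lies in that added stretch, and its reads could add to those of Tlr4. The length behind its FPKM was 6759 bases, far less than the span. In GENCODE M1 Tlr4 also spans 102701 bases, of which exons cover 5556. Where in the gene the reads lay cannot be seen in counts per gene.

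The genes most like Tlr4 in their difference were named by the nearest log2 ratio among 3695 genes with at least 1000 reads in CHBP+ M-MDSC, over only 2 libraries. These were Zfp292, with 144 and 2156 reads and a log2 ratio of 2.90, Gm28048, with 323 and 2719 reads and 2.93, and Myadm, with 1343 and 8313 reads and 2.49. Their folds of reads were 15.2, 8.52 and 6.27, beside 8.09 for Tlr4. Zfp292 was at 0.844 FPKM in CHBP- M-MDSC, where the added 1 FPKM lowers the log2 ratio.

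The genes that work with the receptors are given by role. In 7 lists of 110 pathway genes, 100 were kept at 1 FPKM, of which 1 (1%) was at least 1.5-fold higher and 2 (2%) were at least 1.5-fold lower in CHBP+ M-MDSC on the log2 ratio scale, beside 3.42% and 2.89% of all genes kept. The median log2 ratio was -0.03 over all 10948 genes, of which 46.3% were higher. With the trend with deposited length removed, that median was -0.02. The medians of the lists were then -0.04 for accessory proteins, 0.20 for adaptors, 0.08 for kinases and ubiquitin ligases, and 0.03 for transcription factors. They were 0.03 for inhibitors, -0.01 for target genes and 0.06 for cytosolic receptors.

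Of the 17 accessory and transport proteins, 3 were higher and 14 lower, 0 past 1.5-fold, with a median of -0.09. Ly96 encodes MD-2, the subunit with which TLR4 binds lipopolysaccharide. It had 111 reads in the CHBP- and 112 in the CHBP+ library, or 4.25 and 4.34 FPKM, at a fold of 1.02 (0.779 to 1.34). The gene of the subunit thus had nearly equal reads in both libraries, where those of Tlr4 differed 8.09-fold. Cd14, the coreceptor that hands lipopolysaccharide to TLR4, had 5348 and 4569 reads, at a fold of 0.865 (0.831 to 0.900). Cd180 and Ly86 encode the paired relatives of TLR4 and MD-2 known as RP105 and MD-1. Cd180 had 638 and 810 reads, a fold of 1.29 (1.16 to 1.43), and Ly86 had 505 and 383, a fold of 0.768 (0.671 to 0.879). Unc93b1, the chaperone that carries the endosomal receptors, had 5692 and 4760 reads, at a fold of 0.847 (0.815 to 0.880), lower where its clients Tlr7, Tlr8, Tlr9 and Tlr13 were higher. Ctss, a protease that cleaves endosomal receptors, was the most abundant gene of the list at 979 and 969 FPKM.

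Of the 6 adaptors 5 were kept, 4 higher and 1 lower, 0 past 1.5-fold, with a median of 0.25. Myd88 had 1411 and 1233 reads, at a fold of 0.885 (0.819 to 0.956). Tirap, which brings MYD88 to TLR2 and TLR4, had 559 and 682 reads, a fold of 1.24 (1.10 to 1.38). Ticam1 had 368 and 389 reads, a fold of 1.07 (0.926 to 1.24). Ticam2, which brings TICAM1 to TLR4, had 619 and 769 reads, a fold of 1.26 (1.13 to 1.40). Pik3ap1, which links the receptors to PI3 kinase, was the most abundant at 48.9 and 70.0 FPKM, a fold of 1.43 (1.35 to 1.51).

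Of the 24 kinases and ubiquitin ligases 23 were kept, 19 higher and 4 lower, with a median of 0.15. The 1 gene past 1.5-fold on the log2 ratio scale was Traf3, a ubiquitin ligase of the TICAM1 route, with 356 and 1058 reads, a fold of 3.01 (2.67 to 3.40) and a log2 ratio of 1.03. Irak1, a kinase of the MYD88 route, had 911 and 1426 reads, a fold of 1.58 (1.46 to 1.72), and its log2 ratio of 0.56 did not pass. Irak4, the first kinase after MYD88, had 745 and 763 reads, a fold of 1.04 (0.936 to 1.15). Traf6, the ubiquitin ligase of the MYD88 route, had 934 and 1199 reads, a fold of 1.30 (1.19 to 1.42). Btk, a tyrosine kinase, was the most abundant at 46.1 and 55.3 FPKM. Of the 15 transcription factors 7 were higher and 8 lower, 0 past 1.5-fold, with a median of -0.03, and Cebpb, the most abundant, was at 61.2 and 40.9 FPKM.

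Of the 16 inhibitors 9 were higher and 7 lower, with a median of 0.01. Tnfaip3, which encodes the ubiquitin-editing enzyme A20, had 1709 and 944 reads, a fold of 0.559 (0.516 to 0.606), the 1 inhibitor past 1.5-fold. Lilrb4a, an inhibitory receptor, was the most abundant at 712 and 714 FPKM. Of the 24 inflammatory target genes 16 were kept, 8 higher and 8 lower, with a median of -0.03. Tnf had 2605 and 2378 reads, Il1b 1633 and 1379, and Il6 375 and 344, at folds of 0.924, 0.855 and 0.929. The 1 target past 1.5-fold was the chemokine Ccl5, lower with 71 and 29 reads, a fold of 0.414 (0.259 to 0.645). Ccl3, another chemokine, was the most abundant target at 291 and 241 FPKM. The 8 cytosolic receptors of microbial molecules, 5 higher and 3 lower, had a median of 0.12 and 0 past 1.5-fold, and Nlrp3, the inflammasome sensor, was the most abundant at 26.1 and 24.4 FPKM.

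**Figure D5:**
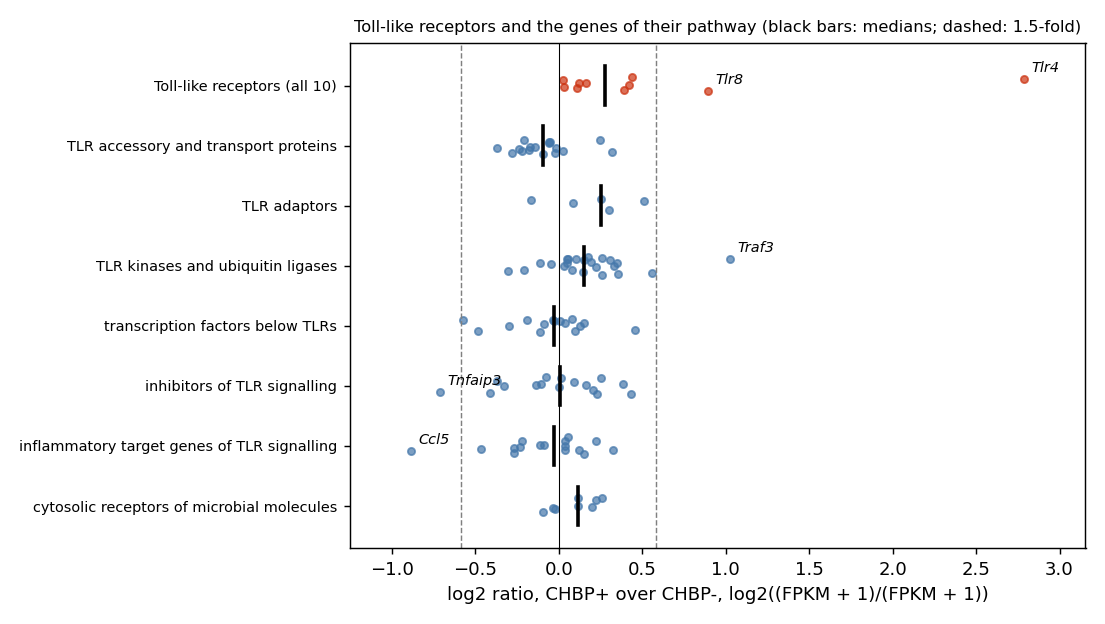
Log2 ratio of CHBP+ over CHBP- M-MDSC for the 10 receptors (red) and for the kept genes of 7 pathway lists (blue), with the median of each row (black bar) and dashed lines at 1.5-fold either way. Tlr4 at 2.79 lies apart, and of the 100 pathway genes Traf3 lies above the upper line and Tnfaip3 and Ccl5 below the lower one.

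Other cell types were read from marker lists, as summed FPKM. Of the 8 monocytic markers 7 had at least 1 FPKM in each library, with sums of 10201 in CHBP- and 8390 in CHBP+ M-MDSC, most of it Lyz2. Of 6 macrophage markers 5 reached 1 FPKM in each library, with sums of 460 and 491, and of 8 neutrophil markers all 8 did, with sums of 195 and 152. The 8 conventional dendritic cell markers summed to 130 and 162, 4 at 1 FPKM or more in each library, mostly Itgax, which monocytic cells also express, and 1 marker, Xcr1, had no reads in either library. The 6 plasmacytoid dendritic cell markers summed to 112 and 83.3, 2 at 1 FPKM or more, with the defining Siglech at 0.496 and 0.442 FPKM. The 8 T and NK cell markers summed to 4.27 and 3.71, 1 of them at 1 FPKM or more in each library and Ncr1 with no reads. The 6 mast cell and basophil markers, all 6 at 1 FPKM or more, summed to 286 and 235, and the 6 erythroid markers, also all 6, to 1305 and 602. The sums hide genes that went opposite ways. Of the 9 monocytic entries, in which Itgam counts with both its entries, 4 had a fold above 1 and 5 below. Lyz2 was at 0.803, and the Itgam entries were at 1.48 and 1.53. Of the 6 macrophage markers 4 had a fold above 1 and 2 below, from Marco at 0.552 to Mrc1 at 1.45. Of the 8 conventional dendritic cell markers 5 were above and 2 below, from Ccr7 at 0.746 to Zbtb46 at 1.92. Marco and Zbtb46 were under 1 FPKM in both libraries. Of the 6 mast cell and basophil markers 2 were above and 4 below, with Ms4a2 at 2.48, and all 6 erythroid markers were below. The part of other cell types in the difference of Tlr4 was not tested.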

How the data were processed

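mRNA of M-MDSC was sequenced as 1 library per condition, grouped by the labels. The methods state single-end reads of 75 bases, alignment to mm9 with TopHat2 and counting with HT-seq, whereas the submitters' processing notes list HISAT2 2.0.4, Cufflinks 2.1.1, Cuffdiff and GRCm38, with no roles. Deposited coordinates overlapped the RefSeq gene on GRCm38 for 10 of 10 members and the mm9 gene (GENCODE M1) for 0 of 10, and are given as deposited. The authors deposited raw read counts per gene and FPKM per gene, in which each count is scaled by 1 length per gene and by the summed counts, with no other scaling found. Strand and multi-mapping in the counting are not given in the sources used here.

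The log2 ratio of CHBP+ over CHBP- FPKM was computed after adding 1 FPKM to each, and genes that reached 1 FPKM in either library were kept. The methods name DESeq, which cannot estimate a spread from single libraries and was left out. Counting intervals, the trend with length (third-degree polynomial) and scaling were checked on simulated data with independent reads. The simulation left out genes with as few reads as Tlr3, Tlr5 and Tlr9, so it does not bear on their intervals. The members and lists were chosen with earlier results of these data known. Genes named are the members, 14 fixed pathway genes, every kept pathway gene past 1.5-fold, the most abundant gene of each list, the sorting markers, and the neighbours and nearest likenesses of Tlr4, and Irak1 and marker genes named beyond these were chosen after their values were seen. GENCODE M1 coding sequences stood in for proteins in the identity of members. Promoters were taken from RefSeq (GRCm38.p6), 75-base windows were matched against GENCODE M1 transcripts, and identity is over global alignments. Transcript length, windows and motifs were chosen after seeing the data, and Irg1 was searched as Acod1 then. Alternatives were a pseudocount of 0.1 FPKM, a minimum of 5 FPKM or none, edgeR 4.0.16 (R 4.3.3) factors by the trimmed mean of M values, median-of-ratios factors, centring on the median, CPM with a pseudocount of 1, a fold threshold of 2, length trends removed, and overlapping genes left out. Python 3.11.15, numpy 2.4.6, pandas 2.3.3, scipy 1.17.1 and matplotlib 3.10.9 were used. One list of cell type markers is not reported here.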

Additional observations from a re-analysis of the deposited data

How the results depend on the processing

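The log2 ratio of Tlr4, 2.79, was 2.99 with a pseudocount of 0.1 FPKM and 2.98 on CPM, outside its counting interval of 2.68 to 2.90, and 2.71 to 2.82 under the other 5 alternatives. Of 59 values recomputed for the other 9 members, 50 stayed within their counting intervals and 0 changed sign. Members higher by 1.5-fold were 2 under 8 of the 11 alternatives, 3 with a pseudocount of 0.1 FPKM or on CPM, which add Tlr9, and 1, Tlr4, at 2-fold. Members lower were 0 throughout. Over all genes, 374 higher and 316 lower became 665 and 571 with a pseudocount of 0.1 FPKM, 609 and 395 on CPM, 312 and 168 with the trend with deposited length removed, 229 and 111 with the trend with GENCODE M1 transcript length removed, 218 and 209 with a minimum of 5 FPKM, and 85 and 46 at 2-fold. The share of higher genes among those past the threshold was 54.2%, against 65% and 67.4% with either length trend removed, and 64.9% at 2-fold. Of 56 recomputed medians of pathway lists, 3 changed sign, to 0.03 for the transcription factors with the deposited length trend removed, to 0.00058 for the target genes with the median centred, and to -0.03 for the cytosolic receptors with a minimum of 5 FPKM. The other scalings moved all log2 ratios by at most 0.03. No paired analysis was possible because each condition has a single library, which also left no replicate to leave out. Depth limits Tlr3, Tlr5 and Tlr9, with 27 to 102 reads a library. The cause of these shifts was not tested.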
